A study of Cricetiscus sungorus with 16 samples.

Results

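The Notch pathway was followed through 10 genes in the ovaries of female Siberian hamsters: the receptors Notch1 (NM_008714), Notch2 (NM_010928) and Notch3 (NM_008716), the ligands Jag1 (NM_013822) and Jag2 (NM_010588), the receptor-modifying enzyme Lfng (NM_008494) and the target genes Hes1 (NM_008235), Hey1 (NM_010423), Hey2 (NM_013904) and Heyl (NM_013905). They were chosen by the mouse transcript identifiers of the array's probes, and all 10 were on the array, with 15 probes among its 41174 probes and 33272 identifiers. The 4 groups held 4 hamsters each. Short-day (SD) hamsters were gestated and kept in 10 h of light per day and long-day (LD) hamsters in 16 h, and ovaries were taken at 8 wk or 3 wk of age. No other treatment or genotype is given in the labels, and the short-day group at 8 wk carries conflicting labels: the description gives 10 h of light, which is followed here, and the title and treatment give 16 h. Both ovaries of a hamster made 1 sample, so fewer cells of a type and less RNA per cell cannot be told apart. The study asked whether short days alter ovarian expression at each age and how the ovary changes between the ages.

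Notch signalling passes between touching cells. A Jagged or Delta-like ligand on one cell binds a Notch receptor on its neighbour, the receptor is cut, and its freed intracellular part joins the DNA-binding protein Rbpj in the nucleus and switches on repressors of the Hes and Hey families. Lfng is a glycosyltransferase of the Golgi that adds sugar to Notch receptors and alters which ligands they answer to. In the mouse ovary Jag1 is made by oocytes and Notch2 by the granulosa cells around them, and the pair takes part in the formation of follicles, while Notch1 is known from endothelium and Notch3 and Heyl from the mural cells of blood vessels.

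The probes were designed for mouse and the RNA was from hamster, and the match between probe and hamster transcript was not tested. A level is a log2 intensity minus that of the array's 75th percentile, so a probe at 0 is as bright as that percentile, and a level of one probe is not set against the level of another, except where the 2 probes of a gene are followed side by side. The percentile ran from 269 to 370 on slide 1 and from 736 to 1007 on slides 2 to 4, and the share of probes well above background ran from 58.0% to 75.7% per array. All 4 groups had 1 array on every one of the 4 slides, in positions that never changed, so effects of position and of group cannot be told apart. Deviations from the group means were shared within slides (median correlation across transcripts 0.450 over 24 pairs of arrays), so results are also given with slide as a block in the fit. The labelled tissue was not checked against marker genes, and other genes of the pathway were not analysed here, because the files pair identifiers with no gene symbols and the names of the 10 genes come from the rule that chose them.

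Of the 10 genes, 9 gave a signal that could be compared and 1 did not. Hey2, a target gene known from heart and vessel development, was not well above background on any of the 16 arrays, so no difference is given for it. The brightest probes of the other 9 genes were well above background on 16 of 16 arrays. These 9 passed the filter, for which the 4 arrays of some group must all be well above background, and were tested among 20143 identifiers. Of the 15 probes 13 passed, the others being that of Hey2 and the dimmest Notch2 probe, which was above background on 1 of 16 arrays. The spread of a gene's level over the 16 arrays ran from 0.63 log2 units for Notch1 and Notch2 to 2.16 for Hes1. Group accounted for 77.8% of the variance of Heyl, 50.5% of that of Jag2 and 48.1% of that of Lfng, but for 8.98% of that of Notch2. Slide accounted for 61.0% of the variance of Jag1, 58.7% of that of Notch2 and 51.9% of that of Notch1, against 5.29% of that of Heyl.

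**Figure D1:**
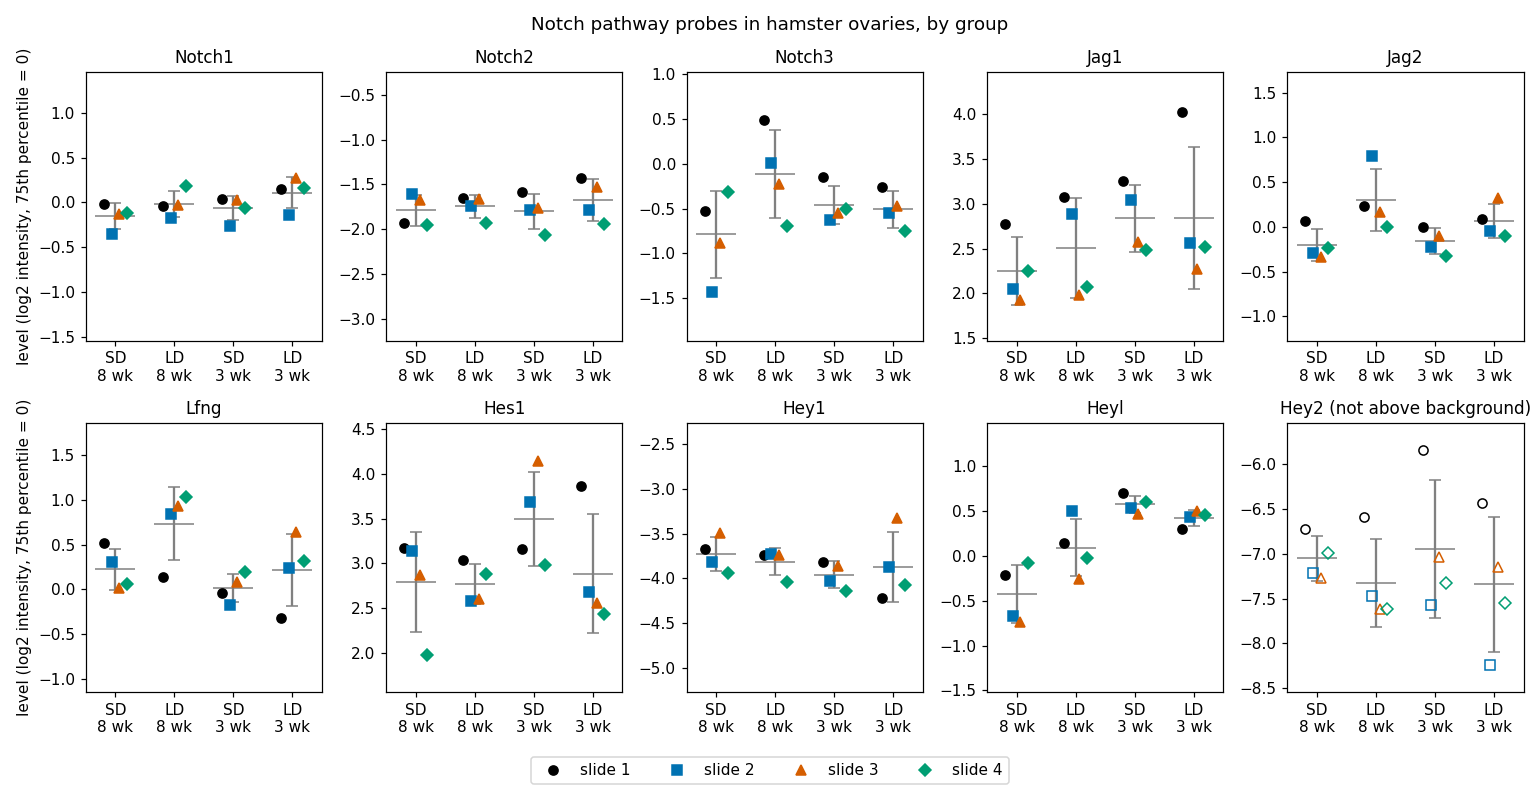
Level of each gene's brightest probe (log2 intensity, array's 75th percentile = 0) by group, SD for short days and LD for long days. Each point is 1 hamster, coloured by slide, open where not well above background; grey bars show the mean and standard deviation of 4 hamsters, and every panel spans 3 log2 units around its own centre. Heyl was lowest in short-day ovaries at 8 wk, and Hey2 was not above background on any array.

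The largest difference among the 9 genes was a fall of Heyl, a repressor of the Hey family, between 3 and 8 wk in short days. On its brightest probe Heyl stood at −0.22, −0.67, −0.74 and −0.08 in short-day ovaries at 8 wk, against 0.70, 0.54, 0.47 and 0.60 in short-day ovaries at 3 wk (slides 1 to 4). The 2 ages did not overlap. Heyl averaged −0.43 ± 0.33 at 8 wk and 0.58 ± 0.10 at 3 wk in short days (standard deviation, n = 4), a 2.0-fold fall (log2 −1.0, SE 0.17, 95% interval −1.37 to −0.63, limma adjusted p = 0.0018, and 0.00078 with the slide block). Slide by slide, 1 to 4, the differences were −0.92, −1.20, −1.21 and −0.68, so each slide gave a fall. The size of the fall depended on the processing and on the probe. It was −0.66 (limma adjusted p = 0.0030) with normexp, which models the background. That setting also adds an offset of 50 and uses quantile normalization, so its value is not that of background correction alone. With the mean of Heyl's 2 probes the fall was −0.46 (limma adjusted p = 0.042).

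Heyl's second, dimmer probe did not show the fall. It stood at −3.47, −2.78, −2.33 and −2.97 in short-day ovaries at 8 wk, against −3.17, −3.18, −2.63 and −2.90 in short-day ovaries at 3 wk, and the ages overlapped. Its difference was 0.08 (SE 0.27, 95% interval −0.49 to 0.65, limma adjusted p = 0.933 over all probes), so its interval lies above that of the brightest probe. The gap between the 2 Heyl probes was 2.46 ± 0.75 log2 units at 8 wk and 3.55 ± 0.33 at 3 wk (standard deviation, n = 4), a difference of −1.08. Slide by slide the gap was smaller at 8 wk by −0.61, −1.60, −1.51 and −0.61. In an exact two-sided permutation test that flipped signs within slides, p was 0.125, the smallest that 4 pairs allow (0.5 after Benjamini-Hochberg adjustment over the 4 genes with a second probe), in a comparison chosen after seeing the data. With slide means removed, the 2 Heyl probes correlated at −0.40 over the 16 arrays, against 0.83 for Jag1, 0.85 for Lfng and 0.47 for Notch2, as a description of probes that share slides and groups. The second Notch2 probe was dim and well above background on 12 of 16 arrays. Among short-day arrays these were 2 of 4 at 3 wk and 3 of 4 at 8 wk. Which of the 2 Heyl probes follows the hamster transcript was not tested.

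**Figure D2:**
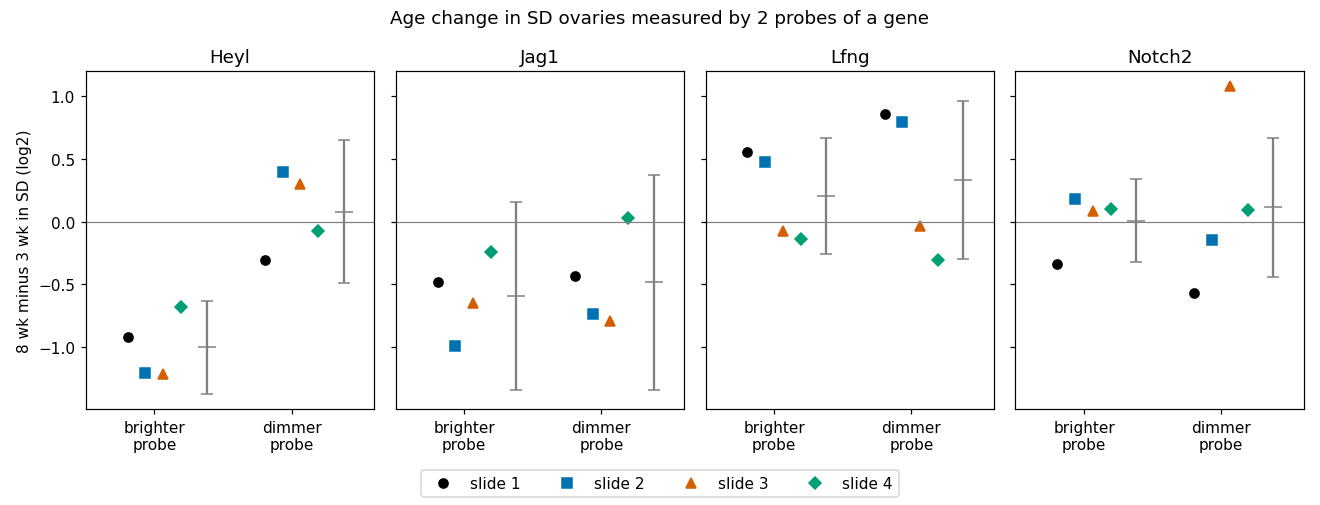
Difference between 8 wk and 3 wk in short-day (SD) ovaries for the brighter and the dimmer probe of Heyl, Jag1, Lfng and Notch2 (log2). Coloured points are the differences within slides 1 to 4; grey bars are the estimate and 95% interval of the fit to all probes without a slide block. For Heyl the brighter probe lies at −1.0 and the dimmer at 0.08, while both probes of Jag1 and both of Lfng lie close together. The dimmer Notch2 probe was well above background on 12 of 16 arrays.

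Among the ligands in short days, the age difference of Jag1 depended on how slides were handled. Jag1, the ligand that oocytes present in the mouse, stood at 2.78, 2.05, 1.93 and 2.24 at 8 wk, against 3.26, 3.04, 2.57 and 2.48 at 3 wk. The ages overlapped, but on each slide the 8-wk array was the lower, by −0.48, −0.99, −0.65 and −0.24. The difference of −0.59 did not pass in the fit without the block (SE 0.35, limma adjusted p = 0.404) and passed with slide as a block (SE 0.19, 95% interval −1.01 to −0.17, limma adjusted p = 0.0420). The second Jag1 probe gave −0.48, with limma adjusted p = 0.611 without the block and 0.0712 with it. In fits with the block that left out single arrays, Jag1 passed in 8 of 16. It lost its call without long-day 3-wk replicate 4, long-day 8-wk replicate 3, short-day 3-wk replicates 2, 3 or 4 or short-day 8-wk replicates 1, 2 or 3, with limma adjusted p up to 0.146. The other ligand, Jag2, stood at 0.06, −0.30, −0.33 and −0.24 at 8 wk, against 0.00, −0.22, −0.10 and −0.33 at 3 wk in short days, and these ranges overlapped almost entirely.

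Among the receptors and remaining targets no difference between 8 and 3 wk in short days passed in either fit. Notch1 averaged −0.15 ± 0.14 at 8 wk and −0.06 ± 0.14 at 3 wk (standard deviation, n = 4), a difference of −0.09 with a 95% interval of −0.37 to 0.19. Notch2 averaged −1.79 ± 0.18 at 8 wk and −1.80 ± 0.19 at 3 wk. For both receptors the interval lay well within a 2-fold change.

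Notch3 had the widest spread of the receptors, at −0.52, −1.43, −0.89 and −0.31 in short days at 8 wk, against −0.14, −0.62, −0.55 and −0.50 at 3 wk, a difference of −0.33 (SE 0.25, limma adjusted p = 0.550). The Notch3 difference was −0.12 without short-day 8-wk replicate 2. With the block and without short-day 8-wk replicate 4 it passed, at −0.59 (limma adjusted p = 0.0261). Hes1, the founding target of the pathway in mammals, stood at 3.18, 3.13, 2.87 and 1.98 at 8 wk, against 3.17, 3.68, 4.15 and 2.99 at 3 wk. The Hes1 difference of −0.70 (SE 0.33) had a limma adjusted p of 0.247, and 0.106 with the block. On slide 1 the 2 Hes1 arrays were alike (a difference of 0.01) and on slides 2 to 4 the 8-wk array was lower by −0.55 to −1.27. Without slide 1 and with the block, Hes1 passed (−0.94, limma adjusted p = 0.0370), and without short-day 8-wk replicate 4 its difference was −0.43.

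Hey1, another Hey-family repressor, was the only target that stood higher at 8 wk in short days on all 4 slides, by 0.15 to 0.37, but the mean difference of 0.23 (SE 0.20) did not pass (limma adjusted p = 0.631, and 0.301 with the block). Hey1's probe was dim, at −4.22 to −3.32 over all arrays, and with normexp the difference was 0.07. Lfng averaged 0.22 ± 0.23 at 8 wk and 0.02 ± 0.16 at 3 wk. Its difference of 0.21 was above 0 on slides 1 and 2, at 0.56 and 0.48, and below 0 on slides 3 and 4, at −0.07 and −0.14. In all, 1 of the 9 genes passed for the age change in short days, where 9.15% of all identifiers tested passed, and 2 of 9 passed with the block, where 23.1% did. At an unadjusted p under 0.05 there were 1 and 3 genes without and with the block, against 20.4% and 34.4% of all identifiers. The ages did not overlap for 1 of 9 genes, against 15.9% of all identifiers. These shares of the Notch genes are near the background. The median difference was −0.09 over the 9 genes and 0.0012 over all identifiers.

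**Figure D3:**
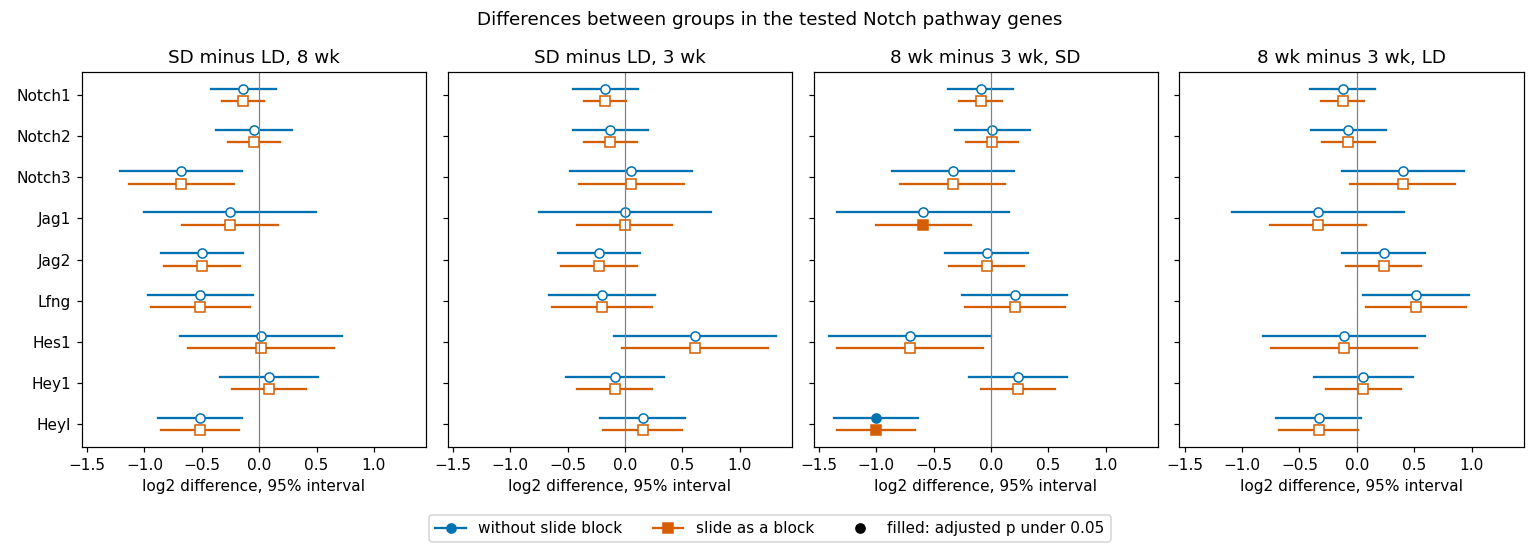
Estimated log2 difference and 95% interval for the 9 tested genes in the 4 comparisons (SD short days, LD long days), without a slide block (circles) and with slide as a block (squares); filled symbols passed at an adjusted p of 0.05. Heyl passed in both fits and Jag1 with the block, both between 8 and 3 wk in short days, and no symbol is filled in the other 3 panels.

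In long days none of the 9 genes passed between 3 and 8 wk in limma, with or without the block, where 2.98% and 11.9% of all identifiers did. At an unadjusted p under 0.05 there was 1 gene in each fit, Lfng, against 13.4% and 25.9% of all identifiers. The ages overlapped for all 9 genes, whereas 8.71% of all identifiers did not overlap. Lfng stood at 0.14, 0.84, 0.93 and 1.03 in long-day ovaries at 8 wk, against −0.32, 0.24, 0.64 and 0.32 in long-day ovaries at 3 wk. The 8-wk array was the higher on each slide, by 0.46, 0.60, 0.29 and 0.71, although the groups overlapped. The difference of 0.51 (SE 0.22, 95% interval 0.05 to 0.97) had a limma adjusted p of 0.288, and 0.124 with the block. Without long-day 3-wk replicate 1 it was 0.33. Lfng's dimmer probe differed by 0.38 (SE 0.30).

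Heyl in long days stood at 0.15, 0.50, −0.26 and −0.03 at 8 wk, against 0.30, 0.43, 0.50 and 0.46 at 3 wk. Its difference of −0.33 (SE 0.17, limma adjusted p = 0.453) was below 0 on slides 1, 3 and 4, and at slide 2 it was 0.07. It was −0.22 without long-day 8-wk replicate 3. Heyl's dimmer probe differed by −0.04 (SE 0.27), and the mean of its 2 probes by −0.19. Notch3 stood at 0.48, 0.00, −0.23 and −0.70 at 8 wk, against −0.26, −0.55, −0.47 and −0.75 at 3 wk in long days, a difference of 0.40 (SE 0.25, limma adjusted p = 0.578) that was above 0 on each slide. The other differences in long days lay between those of Jag1, −0.34 (SE 0.35), and Jag2, 0.23 (SE 0.17). The slide 1 array in long days at 3 wk, at 4.02, stood above the other 3, at 2.27 to 2.57. Without it the Jag1 difference was 0.05 in the fit without the block and −0.11 in the fit with it, and without the whole of slide 1 it was −0.14. For Notch1 the long-day difference was −0.12 (SE 0.13). Over the 9 genes the median long-day difference was −0.07, and over all identifiers −0.04.

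Short-day and long-day ovaries were then compared at 8 wk. Short days delay puberty in this species, per the submitters' design text. None of the 9 genes passed in limma, with or without the block, where 0.958% and 2.62% of all identifiers did. At an unadjusted p under 0.05 there were 4 genes in each fit, Notch3, Jag2, Heyl and Lfng, all lower in short days, against 6.94% and 14.1% of all identifiers. The median difference was −0.26 over the 9 genes and −0.01 over all identifiers, and 7 of the 9 were below 0. The day lengths overlapped for every one of the 9 genes, whereas 4.11% of all identifiers did not overlap.

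Notch3, the receptor of vascular mural cells in mice, stood at −0.52, −1.43, −0.89 and −0.31 in short days at 8 wk, against 0.48, 0.00, −0.23 and −0.70 in long days at 8 wk. It was lower in short days on slides 1 to 3, by −1.01, −1.43 and −0.66, and higher on slide 4, by 0.39. The mean difference of −0.68 (SE 0.25, 95% interval −1.21 to −0.15) had a limma adjusted p of 0.414, and 0.128 with the block. With the block and without short-day 8-wk replicate 4 or without long-day 8-wk replicate 4, Notch3 passed, at −0.94 (limma adjusted p = 0.0105) and −0.89 (0.0364). It passed in only these 2 of the 16 block fits that left out single arrays. Over those 16 fits the Notch3 difference ran from −0.94 to −0.48, with limma adjusted p up to 0.419.

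Jag2 stood at 0.06, −0.30, −0.33 and −0.24 in short days at 8 wk, against 0.24, 0.79, 0.16 and 0.00 in long days at 8 wk. Only the slide 1 array in short days reached into the long-day range, and the short-day array was the lower on each slide, by −0.17, −1.09, −0.49 and −0.24. The difference was −0.50 (SE 0.17, 95% interval −0.86 to −0.14, limma adjusted p = 0.318, and 0.121 with the block). With the block and without long-day 8-wk replicate 2, the Jag2 array at 0.79, it was −0.30 (limma adjusted p = 0.336). Heyl stood at −0.22, −0.67, −0.74 and −0.08 in short days at 8 wk, against 0.15, 0.50, −0.26 and −0.03 in long days at 8 wk. It too was the lower on each slide, by −0.36, −1.17, −0.48 and −0.05, with a mean of −0.51 (SE 0.17, limma adjusted p = 0.312, and 0.125 with the block). Its dimmer probe differed by 0.02 (SE 0.27).

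Lfng stood at 0.51, 0.30, 0.01 and 0.05 in short days at 8 wk, against 0.14, 0.84, 0.93 and 1.03 in long days at 8 wk. On slides 2 to 4 the short-day array was lower, by −0.54, −0.91 and −0.97, and on slide 1 it was higher, by 0.38. Both probes of Lfng followed this pattern, with the dimmer at 0.75 on slide 1 and −0.32, −0.94 and −1.09 on slides 2 to 4. Over all slides the difference was −0.51 (SE 0.22, 95% interval −0.97 to −0.05, limma adjusted p = 0.584, and 0.256 with the block). Without slide 1 it was −0.81 and passed, with a limma adjusted p of 0.0244 without the block and 0.0328 with it (0.0244 to 1.0 over its 49 alternative settings). Slide 1 also had the lowest intensities, and the part of that in the Lfng result was not tested.

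For the other genes the day lengths differed at 8 wk by less than their spread. Notch1 averaged −0.15 ± 0.14 in short days and −0.01 ± 0.15 in long days, a difference of −0.14 (SE 0.13), and Notch2 averaged −1.79 ± 0.18 in short days and −1.75 ± 0.13 in long days (standard deviation, n = 4). Hes1 averaged 2.79 ± 0.56 in short days and 2.77 ± 0.22 in long days. Hey1, with 0.08 (SE 0.20), had the highest of the 9 differences.

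**Figure D4:**
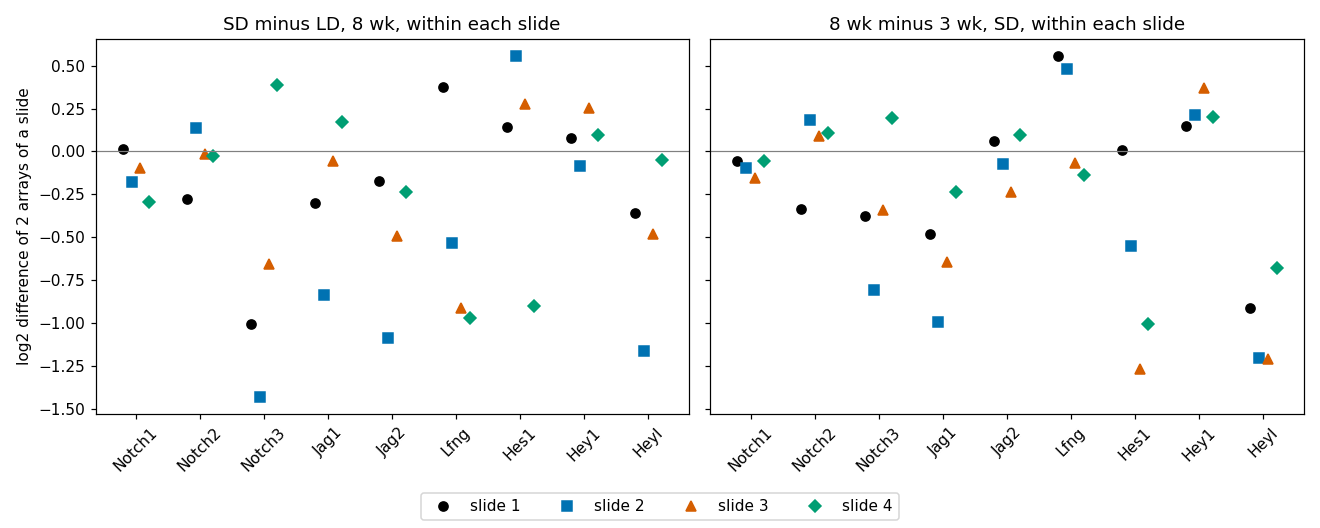
Difference between the 2 arrays of each slide (log2) for the 9 tested genes, short days (SD) minus long days (LD) at 8 wk on the left and 8 wk minus 3 wk in short days on the right; each point is 1 slide. Jag2 and Heyl lie below 0 on all 4 slides on the left, Lfng lies above 0 on slide 1 alone there, and Heyl lies between −1.21 and −0.68 on the right.

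At 3 wk short-day and long-day ovaries gave no gene past the threshold in limma, with or without the block, where 0% of all identifiers passed in either fit, and 0 of 9 at an unadjusted p under 0.05 in either fit, against 1.64% and 6.44% of all identifiers. The day lengths overlapped for all 9 genes, whereas 1.71% of all identifiers did not overlap. The differences ran from −0.23 for Jag2 (SE 0.17) to 0.61 for Hes1 (SE 0.33), and the 95% interval lay within 2-fold for 8 of the 9 genes, Hes1 being the exception. Hes1 stood at 3.17, 3.68, 4.15 and 2.99 in short days at 3 wk, against 3.87, 2.68, 2.56 and 2.43 in long days at 3 wk. The short-day array was higher on slides 2 to 4, by 1.0, 1.59 and 0.56, and lower on slide 1, by −0.70. The Hes1 difference was 1.05 without slide 1, 0.94 without long-day replicate 1 and 0.39 without short-day replicate 3, and passed in none of these settings. Notch1 was lower in short days on all 4 slides, by −0.11 to −0.24, a mean of −0.17 (SE 0.13) that did not pass. Scaled by the array median in place of the 75th percentile, the Notch1 difference was −0.11. Over the 9 genes the median difference at 3 wk was −0.09, and over all identifiers −0.05.

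Whether the age change itself differed between day lengths was tested as an interaction, the short-day change minus the long-day change. None of the 9 genes passed in limma, with or without the block, where 0.0596% and 0.174% of all identifiers did. At an unadjusted p under 0.05 there was 1 gene without the block (Heyl) and 2 with it (Heyl and Notch3), against 3.05% and 8.5% of all identifiers. For Heyl the short-day change of −1.0 and the long-day change of −0.33 differed by −0.67 (SE 0.25, 95% interval −1.19 to −0.15), with a limma adjusted p of 1.0, and 0.409 with the block. The difference was below 0 on each slide, by −0.76, −1.27, −0.45 and −0.19. This is the brightest probe: Heyl's dimmer probe gave 0.12 (SE 0.38), and the mean of the 2 probes −0.28. The call for Heyl in short days and its absence in long days are therefore not shown to differ. For Notch3 the short-day change of −0.33 and the long-day change of 0.40 differed by −0.73 (SE 0.35), above 0 on slide 4 alone. Those of Hes1 and Lfng were −0.59 (SE 0.47) and −0.31 (SE 0.31), and that of Jag2 was −0.27 (SE 0.24). The highest was that of Hey1, at 0.18 (SE 0.29).

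How the genes varied together was described with the mean of each slide removed, over the 16 arrays, which share slides, groups and scaling. Among the 36 pairs, Pearson correlations ran from −0.73 to 0.72 with a median of 0.15. Jag1 and Heyl had the highest, at 0.72, followed by Jag2 and Lfng at 0.68 and Notch3 and Jag2 at 0.66. Hes1 and Hey1 had the lowest, at −0.73. By the genes' brightest probes, the clearest differences between groups were those of Heyl, which its dimmer probe did not share. Over 18639 other identifiers measured on all arrays, the nearest to Heyl's brightest probe in pattern were NM_001001491 and AK012530, each with a correlation of 0.96. NM_001001491 averaged 5.41 ± 0.44 and 5.74 ± 0.51 in short and long days at 8 wk, against 6.06 ± 0.54 and 6.10 ± 0.27 at 3 wk. Its short-day age difference of −0.64 did not pass in the fit without the block (limma adjusted p = 0.230). Here and for AK012530, the spreads and tests keep the slide effects that the correlation left out, and the block fit is not given. AK012530 averaged −0.46 ± 0.40 and 0.03 ± 0.45 at 8 wk, against 0.49 ± 0.19 and 0.30 ± 0.12 at 3 wk. It fell in short days by 0.95 on the log2 scale (limma adjusted p = 0.0116 without the block). Both were picked for their likeness to Heyl, so their differences add no independent support to it.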

How the data were processed

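Amplified ovary RNA carrying Cy3 was put on 1-colour mouse arrays, per the labels' protocols. Per the file headers, the authors extracted spots with Agilent Feature Extraction 10.5.1.1. The deposited processed intensity is linear. Each array's 75th percentile differed, so arrays had not been scaled to each other, and whether signals were detrended is not given in the sources used here. The authors' deposited value table, tried as an alternative, gave the same intensity to within 0.6% except in 4 of 694064 values (column medians 26.6 to 91.5, linear, not centred). Deposited flags of 0 or 1 marked outlier spots and spots well above background. No spot was saturated, and precision is limited by the number of arrays.

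Control and outlier spots were left out, log2 intensities were averaged per probe and the array's 75th percentile was subtracted. A probe needed a value on at least 12 arrays, among them 2 of every group and 2 of every slide, and had to be well above background on all 4 arrays of a group. Each of 20143 identifiers was represented by its brightest probe. Contrasts were fitted over all 16 arrays with limma 3.58.1 in R 4.3.3 (intensity trend), with Benjamini-Hochberg adjustment over all identifiers and a threshold of 0.05. The fit was tested on simulated data. Arrays scanned at one time, per the file headers, were taken as a slide. Replicate numbers are not in the labels, and a replicate is numbered here by its slide. Every pair of arrays on a slide deviated together (lowest correlation 0.228), so slide pairs the samples and the fit with slide as a replicate block stands beside the one without. Titles carry separate animal codes, so each array was taken as 1 hamster. By the rule for names, all 10 genes were named with their probes, together with the 2 identifiers most like the gene with the largest moderated F statistic. The genes, lists and tests were chosen with earlier results of these data known. Planned lists of further pathway genes and cell type markers could not be matched to identifiers and were not used. Alternatives covered scaling, background correction, filters, choice of probe, the spread model and left-out arrays. The background correction was normexp on median signals with an offset of 50, followed by quantile normalization in place of the 75th percentile.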

Additional observations from a re-analysis of the deposited data

Results flagged for a closer look

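In 2 of the 36 sets of 4 arrays (9 genes in 4 groups), 1 array stood apart by Dixon's test for an extreme value at the 95% level. About 1 in 20 such sets is picked out by chance. In long days at 3 wk, Jag1 stood at 4.02 on replicate 1, against 2.27 to 2.57 on the other 3 arrays. In long days at 8 wk, Hey1 stood at −4.04 on replicate 4, against −3.75 to −3.73 on the other 3 arrays. Neither gene's age difference in long days passed the test with all arrays. No difference between the age changes of the 2 day lengths passed the interaction test.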

How the results depend on the processing

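On its brightest probe or the mean of its 2 probes, the fall of Heyl between 3 and 8 wk in short days kept its direction. It stayed past the threshold under all 49 alternatives, with values from −1.12 to −0.46 and limma adjusted p from 0.00024 to 0.0418. Without single arrays its adjusted p stayed at or below 0.0090, and with the slide as a replicate block and single arrays left out at or below 0.0043. The alternatives did not include Heyl's dimmer probe alone. For the same comparison that probe gave 0.08 (SE 0.27, limma adjusted p = 0.933 over all probes) and did not show the fall. The number of genes past the threshold in that comparison was 1, but 2 with the replicate block (Heyl and Jag1), with array weights (Heyl and Hes1) and with every probe fitted on its own with the block, and 3 with the block without slide 1. With the block and single arrays left out it ran from 1 to 3. For short against long days at 8 wk it was 0, but 1 (Lfng) with array weights, without slide 1, and without slide 1 with the block, and 0 to 1 with the block and single arrays left out. For the long-day age change it was 0, but 1 (Lfng) with array weights and without slide 1 with the block. It was 0 under every alternative at 3 wk and for the interaction. The cause of these shifts was not tested. Among the 28 differences printed, 4 changed sign in a setting. Hey1 at 8 wk was −0.0030 with normexp. Without single arrays, Jag1 between 8 and 3 wk in long days ran from −0.53 to 0.055, above 0 without long-day 3-wk replicate 1, and the Hey1 interaction from −0.0078 to 0.29, below 0 without long-day 3-wk replicate 3. Lfng between 8 and 3 wk in short days was −0.024 with the block and without short-day 8-wk replicate 1. None of the 4 passed in any setting. The other 17 differences of the 9 genes, shown at most through group levels, gave 76 values of opposite sign among 830, and 0 past the threshold. The block fits other than the planned one were added after seeing the data.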
